A study of Homo sapiens with 18 samples.

Results

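The genes described here are the long intergenic non-coding RNA genes that carry a name of the form LINC followed by 5 digits and that were expressed in human induced pluripotent stem cells (PSCs) with or without PCGF6. Members were chosen by 2 criteria, the form of the name and a summed count of at least 100 over the 6 RNA-seq libraries. This left 142 of 1867 LINC rows, in a table of 57133 genes. Of the 1725 rows below the threshold, 827 had no count in any library. The sum that chose the members includes the knockout libraries, so a gene at or near 0 in wild-type (WT) cells entered only if it was higher without PCGF6. Such genes are among the 28 members with fewer than 34 counts over the WT libraries. Of these 28, 22 were called higher and 6 were not called in each clone. The increases among them are given below as a description with no test. All 142 members had at least 67 counts over the 4 knockout libraries.

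Long intergenic non-coding RNAs are transcribed from their own promoters between protein-coding genes, are usually spliced and polyadenylated, and encode no long open reading frame. Many are made in only a few cell types, at lower levels than mRNAs, and several are known from PSCs, where they are switched on or off as cells leave pluripotency. A LINC number says only that the gene was catalogued under that name, not where it lies, and most of these genes have no known function. PCGF6 is the subunit that defines the variant Polycomb complex PRC1.6, which contains MGA, MAX and E2F6 and sits mainly at CpG-rich promoters.

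The WT cells were PGP1, an established human induced PSC line, and both knockouts were made in it with CRISPR-Cas9 and a pair of guide RNAs against the first exon of PCGF6. PCGF6-KO clone 1 (KO#1) and PCGF6-KO clone 2 (KO#2) each grew from a single cell, so each genotype is represented by 1 clone, and an effect of the deletion and of the clone cannot be told apart within one clone. All cells were kept in PSC culture on Matrigel in mTeSR1 medium, with no further agent, and 2 libraries were sequenced for each of WT, clone 1 and clone 2. The labels do not say whether the replicate libraries came from separate cultures, so p-values measure the spread between these libraries, which may be technical.

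The libraries held between 15877396 and 18918609 counts. PCGF6 itself had 268 and 300 counts in the WT libraries, 99 and 103 in those of clone 1, and 187 and 159 in those of clone 2, with fitted log2 fold changes of −1.67 and −0.77. The gene count covers the whole transcript, most of which lies outside the deleted stretch, so it checks the labels only in part. The pluripotency markers POU5F1, NANOG and SOX2 were present in every library, with summed levels between 1759 and 2037 CPM (counts relative to the library total, scaled with edgeR's TMM factors), most of it from POU5F1. SOX2 had a log2 fold change of −0.41 in clone 1 and was called lower in clone 2 (−1.04), and NANOG had 0.44 and 0.35, under the fold threshold. Markers of mesendoderm (TBXT, EOMES, MIXL1, SOX17, FOXA2 and GSC), the first cells of mesoderm and endoderm, summed to 4.13 to 4.97 CPM in WT, 615 CPM in clone 1, and 726 to 742 CPM in clone 2. SOX17 was at 0 in both WT libraries and TBXT in 1 of them. Neuroectoderm markers (PAX6, SOX1 and OTX2) summed to 72.1 and 72.5 CPM in WT and to between 29.7 and 32.5 CPM in the knockouts, nearly all of it OTX2. OTX2 was called lower in both clones (−1.24 and −1.28), PAX6, with 2 and 9 counts in WT and 10 to 19 in the knockouts, was called higher in clone 1 (1.51), and SOX1 had at most 1 count. The part of other cell types in the changes below was not tested, and in bulk RNA fewer cells of a type and less RNA per cell cannot be told apart.

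The LINC genes took a larger part of the counts in the knockout libraries than in WT. They held 0.109 and 0.107% of the counts in WT, 0.195 and 0.201% in clone 1, and 0.215% in both libraries of clone 2. The groups did not overlap. The members, and the 5 named next, were chosen by a summed count that includes the knockout libraries. Genes high in the knockouts were thus favoured, and part of the larger share may follow from this choice. No such share was taken for another gene set. Most of the gain lay among the 5 members with the highest summed count, of which LINC00458, LINC01356, LINC02582 and LINC01108 rose and LINC00678 fell. Together these 5 held 19.9 and 18.8% of the LINC counts in WT but 50.3 and 50.2% in clone 1 and 52.9 and 53.3% in clone 2. Without these 5, the share was 0.0876 and 0.0870% in WT, between 0.0967 and 0.100% in clone 1, and between 0.100 and 0.101% in clone 2. More LINC rows were also seen at all: 513 and 530 of them had a count in the WT libraries, against 629 to 661 in the knockout libraries. This number depends on depth, and the WT libraries were the shallowest (15877396 and 16351360 counts, against 16735336 to 18918609). Rows with a count were not compared over all genes.

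Per kilobase of gene, the members lay below protein-coding genes, whose median level was 4.10 to 4.39 CPM per kb in the 6 libraries. The median member had 0.831 and 0.924 CPM per kb in the WT libraries, 1.25 and 1.16 in those of clone 1, and 1.45 and 1.28 in those of clone 2. For comparison, 225 antisense genes named -AS that passed the same threshold had medians of 0.807 to 0.908 CPM per kb, with the ranges of WT and knockout libraries overlapping. The member with the highest mean level per kilobase was LINC00678 in WT (133.9 CPM per kb), LINC00458 in clone 1 (134.3) and LINC01356 in clone 2 (170.9).

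Which LINC genes changed was asked by comparing each clone with WT. None of the 142 members was lost to edgeR's low-count filter, and calls required an absolute log2 fold change over 0.6 together with a Benjamini-Hochberg adjusted p under 0.05 over 17672 genes. In clone 1, 48 members (33.8%) were called higher and 14 (9.86%) lower, and their median log2 fold change was 0.37. The background over all genes tested in clone 1 was 24.8% called, 16% higher and 8.8% lower, with a median of 0.00, and 15.6% and 8.89% among genes that also had a summed count of at least 100. In clone 2, 49 members (34.5%) were called higher and 14 (9.86%) lower with a median of 0.36, against a background of 29.4%, 16.9% higher and 12.5% lower, and of 16.5% higher and 12.5% lower among genes with at least 100 counts. Both comparisons use the same 2 WT libraries and are not independent of each other. The share called lower is not read as a result, since members low in WT could hardly be called lower. The share called higher was above the background in both clones.

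Part of that excess is fixed by how the members were chosen. Of the 28 members with fewer than 34 counts over WT, 22 were called higher and 0 lower in each clone. The other 114 members were called higher in 22.8% and lower in 12.3% in clone 1, median log2 fold change 0.19, and in 23.7% and 12.3% in clone 2, median 0.19. Genes of any kind with at least 100 counts in all and at least 34 in WT were called higher in 11.8% and lower in 9.43% in clone 1, and in 12.8% and 13.3% in clone 2. Antisense genes with at least 100 counts stayed near the background, with 16.4% higher and 10.7% lower in clone 1, 16.9% and 13.8% in clone 2, and medians of 0.01 and −0.01. Of 71 members that share exon bases with another gene the counts are less certain, since the strand setting of the counting is not given in the sources used here. They include LINC00458, LINC01356, LINC00707, LINC02086, LINC01410, LINC00599, LINC01139, LINC01694, LINC02381 and LINC00632, all described below. LINC02582, LINC01108, LINC00678 and LINC02570 share none. Among the 70 members known to share none, 24 were called higher and 5 lower in clone 1, and 23 and 9 in clone 2.

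The sizes were uneven, in part through how the members were chosen. The 28 members with fewer than 34 counts over WT had median log2 fold changes of 2.29 in clone 1 and 2.73 in clone 2. The numbers below include these members and were not set against the sizes over all genes. In clone 1, 24 of the members called higher rose by more than 2 on the log2 scale and 9 by more than 4, whereas 3 of those called lower fell by more than 2 and 0 by more than 4. In clone 2 the numbers were 28 and 11 among the increases and 5 and 1 among the decreases. The 80 members not called in clone 1 had log2 fold changes between −0.64 and 0.91, and the 79 in clone 2 between −0.69 and 0.85. At the threshold of the rule, the last members inside were LINC02387 and LINC00402 with 101 counts and LINC00562 with 105, and the first rows outside were LINC00115 with 99 and LINC01106 and LINC00461 with 95.

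Among LINC genes that were not detected or barely detected in WT, 3 had no count in either WT library and entered through the knockouts alone. LINC01124 lies head to head with SP5, a WNT-responsive transcription factor gene, on chromosome 2 (GRCh38, chr2:170712451-170714567, reverse strand), with 770 bases between the 2 genes. It had 0 and 0 counts in the WT libraries, 180 and 166 in those of clone 1, and 98 and 92 in those of clone 2. Against a floor of 3 counts in each WT library it was at least 50.9-fold higher in clone 1 and at least 30.6-fold higher in clone 2. These bounds, and the intervals below, cover counting error only. Both clones stood clear of WT, and clone 1 was higher than clone 2 by edgeR's quasi-likelihood test (log2 difference of −0.74 ± 0.16 (SE), clone 2 minus clone 1, adjusted p = 0.00204), a difference that DESeq2 did not call (adjusted p = 0.0745).

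LINC02086 lies beside HOXB7, a homeobox gene of the posterior body axis, on chromosome 17 (chr17:48646923-48707346, forward strand), 13351 bases away. It had 0 and 0 counts in the WT libraries, 90 and 76 in those of clone 1, and 191 and 184 in those of clone 2, so that it was at least 24.4-fold and at least 60.4-fold higher. Here clone 2 was the higher one (log2 difference of 1.30 ± 0.17 (SE), edgeR adjusted p = 2.87e-06). LINC01867, a gene on chromosome 2 with no protein-coding gene within 50 kb, had 0 and 0 counts in the WT libraries, 47 and 63 in those of clone 1, and 43 and 36 in those of clone 2, at least 16.3-fold and 12.7-fold higher. The difference between the clones was not called.

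Another group had 1 to 3 counts in each WT library. LINC02474 had 2 and 2 counts in the WT libraries, 269 and 276 in those of clone 1, and 319 and 282 in those of clone 2, a ratio of 120 (95% counting interval 46.8 to 444) in clone 1 and 145 (56.3 to 534) in clone 2. LINC01508 went from 1 and 1 counts to 75 and 55 in clone 1 and 94 and 96 in clone 2, ratios of 57.5 (15.6 to 479) and 91.6 (25.0 to 762). LINC01695 had 1 and 1, 77 and 60, and 50 and 42 counts, ratios of 60.6 (16.4 to 505) and 44.4 (11.9 to 372). None of these 3 genes has a protein-coding gene within 50 kb. LINC01410, with 3 and 1 counts in the WT libraries, 28 and 34 in those of clone 1, and 37 and 36 in those of clone 2, had ratios of 13.7 (5.09 to 51.9) and 17.6 (6.59 to 66.3).

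The next group was expressed in WT and rose many-fold, so that the test is not fixed by the choice of members. LINC00458, a gene on chromosome 13 (chr13:53950255-54270397, reverse strand) known from embryonic stem cells, had 101 and 108 counts in the WT libraries, 6149 and 6089 in those of clone 1, and 6995 and 6263 in those of clone 2. Its level was 6.34 ± 0.190 CPM in WT, 328 ± 9.44 in clone 1 and 388 ± 3.22 in clone 2 (SD, n = 2 each), and the log2 fold change was 5.69 ± 0.08 (SE) in clone 1 and 5.93 ± 0.08 in clone 2. It was the member with the highest summed count, and its WT and knockout libraries were far apart. By edgeR's quasi-likelihood test the adjusted p was 2.95e-26 in clone 1 and 9.04e-27 in clone 2.

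LINC02582 on chromosome 18 had 150 and 168 counts in the WT libraries, 3393 and 3647 in those of clone 1, and 5084 and 4737 in those of clone 2, log2 fold changes of 4.29 ± 0.09 (SE) and 4.90 ± 0.09. LINC01356 on chromosome 1 had 297 and 292, 4101 and 3626, and 5685 and 4968 counts, log2 fold changes of 3.53 ± 0.07 and 4.12 ± 0.08. Both genes were higher in clone 2 than in clone 1 in every library, by 0.61 and 0.59 on the log2 scale, and only the first passed the fold threshold of 0.6, which it missed when any of 3 libraries was left out, with upper-quartile normalization (0.58) and with only the groups compared (0.59). LINC00707 on chromosome 10 had 63 and 37 counts in the WT libraries, 1365 and 1408 in those of clone 1, and 819 and 818 in those of clone 2, log2 fold changes of 4.61 ± 0.14 and 3.98 ± 0.15. LINC01108 on chromosome 6, also known from embryonic stem cells, had 277 and 225, 3356 and 3169, and 2226 and 1871 counts, log2 fold changes of 3.52 ± 0.09 and 2.97 ± 0.09. These last 2 were higher in clone 1 than in clone 2, by 0.63 and 0.55 on the log2 scale, the second under the fold threshold.

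Fewer genes fell. LINC00678, which lies beside BDNF on chromosome 11 (chr11:27617626-27634627, reverse strand) and is known from PSCs, had the highest level per kilobase of all members in WT. It had 2640 and 2501 counts in the WT libraries, 1524 and 1515 in those of clone 1, and 1415 and 1351 in those of clone 2, and fell by the same log2 fold change of −0.94 ± 0.07 (SE) in both. BDNF, a neurotrophin gene, had 43 and 58, 32 and 46, and 60 and 41 counts and was not called. The level of LINC00678 in the knockouts, 81.5 ± 2.57 and 81.1 ± 4.36 CPM (SD, n = 2 each), was still high among members.

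LINC02570 showed the largest decrease in clone 2. It lies on chromosome 6 (chr6:30838324-30848204, reverse strand) and had 366 and 403 counts in the WT libraries, 57 and 64 in those of clone 1, and 33 and 14 in those of clone 2, log2 fold changes of −2.84 ± 0.17 (SE) and −4.08 ± 0.20. DDR1, a collagen receptor gene 28217 bases away, had 4375 and 4437, 3713 and 3398, and 2345 and 1945 counts and was called lower in clone 2 alone (−0.49 ± 0.06 in clone 1 and −1.09 ± 0.06 in clone 2). LINC01844 on chromosome 5 showed the largest decrease in clone 1: it had 162 and 178 counts in the WT libraries, 9 and 17 in those of clone 1, and 38 and 38 in those of clone 2, log2 fold changes of −3.87 ± 0.25 and −2.21 ± 0.21.

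LINC00599, the host gene of the neural microRNA miR-124-1, had 325 and 298 counts in the WT libraries, 52 and 52 in those of clone 1, and 82 and 44 in those of clone 2, log2 fold changes of −2.76 ± 0.18 (SE) and −2.36 ± 0.17. LINC01234 on chromosome 12 had 93 and 95, 40 and 44, and 23 and 13 counts, and LINC01694 on chromosome 21 had 57 and 59, 26 and 30, and 8 and 13. Both fell further in clone 2 (−2.43 and −2.50) than in clone 1 (−1.34 and −1.22), and their neighbours RBM19 and SLC19A1 were not called. LINC01139 (14.1 and 10.1 CPM in the WT libraries, 7.48 and 6.55 in clone 1, 4.96 and 4.24 in clone 2) and LINC01484 (122 and 90, 74 and 56, 79 and 49 counts) completed the members called lower in both clones, with log2 fold changes of −0.78 and −0.88 in clone 1 and −1.38 and −0.78 in clone 2. Without 1 of the WT libraries, LINC01484 was called in neither clone and LINC01139 not in clone 1.

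Read by known role, the lists of LINC genes gave mixed directions. These lists were drawn up from background knowledge with earlier results of these data known. Of 3 lincRNAs known from pluripotent cells, LINC00458 and LINC01108 were called higher and LINC00678 lower in both clones. Of 6 neural lincRNAs, 3 were tested, of which 2 were called higher and 1 lower in each clone. Only 2 of the 6 were members, LINC00599, which fell as above, and LINC00632, the host gene of the circular RNA CDR1as on chromosome X. LINC00632 had 141 and 128 counts in the WT libraries, 252 and 214 in those of clone 1, and 262 and 206 in those of clone 2. Its log2 fold changes were 0.61 ± 0.14 (SE) and 0.74 ± 0.14. The value in clone 1 was just over the threshold and fell under it without WT replicate 2 or clone 1 replicate 1. LINC02381, which lies beside the HOXC cluster, was the 1 member of 3 lincRNAs beside lineage factors, and had 3 and 3 counts in the WT libraries, 42 and 35 in those of clone 1, and 63 and 42 in those of clone 2, ratios of 11.3 (4.98 to 31.9) and 16.9 (7.5 to 47.0). It overlaps SMUG1, a DNA repair gene, which was not called. Of 9 LINC genes with a described microprotein, 0 stood in the table under those names.

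Of 18 broadly expressed lincRNAs listed, 11 were members. Of the 11, 3 were called in clone 1 and 2 in clone 2, against 24.8% and 29.4% of all genes tested, and 7 were called in neither clone: LINC00511, LINC00662, LINC00667, LINC00847, LINC01578 (now CHASERR, which overlaps CHD2), LINC00294 and LINC00339, with counts in WT between 17 and 380. LINC00467, which overlaps no exon of another gene, was called higher in both clones, with 146 and 120 counts in the WT libraries, 241 and 295 in those of clone 1, and 300 and 294 in those of clone 2 (0.83 ± 0.15 (SE) and 1.11 ± 0.14). LINC00205 was called higher in clone 1 (0.69 ± 0.11), with 221 and 228, 439 and 380, and 363 and 269 counts, and had a log2 fold change of 0.44 ± 0.12 in clone 2. LINC00342 was called lower in clone 2 alone (−0.85 ± 0.27), with 57 and 49, 47 and 39, and 36 and 25 counts, a call that was lost without WT replicate 1 or clone 2 replicate 2.

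LINC00665, the most abundant of that list in counts, separated the clones. It had 2242 and 2392 counts in the WT libraries, 1062 and 1013 in those of clone 1, and 1859 and 1715 in those of clone 2. The log2 fold change was −1.34 ± 0.07 (SE) in clone 1 and −0.42 ± 0.06 in clone 2, and the difference of 0.91 ± 0.07 between the clones was called by edgeR's quasi-likelihood test (adjusted p = 2.27e-10). Its nearest protein-coding gene ZFP14, a zinc finger gene, was called in neither clone.

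How far the clones differed was tested directly. Between clone 2 and clone 1, 12 members (8.45%) were called higher and 9 (6.34%) lower, and their median log2 difference was 0.02. The background was 7.87% called, 3.73% higher and 4.14% lower, and 3.69% and 4.29% among genes with at least 100 counts. LINC01060 had 6 and 8 counts in the WT libraries, 14 and 9 in those of clone 1, and 55 and 61 in those of clone 2, a log2 difference of 2.45 ± 0.34 (SE). It had 37 counts outside clone 2 and so became a member through clone 2 alone, which makes this value a description with no test. LINC00540 had 15 and 8, 45 and 38, and 128 and 147 counts, and LINC00504 had 45 and 49, 65 and 73, and 220 and 182, with log2 differences of 1.86 ± 0.22 and 1.66 ± 0.16. In all 3, clone 1 lay nearer to WT than clone 2 did. In the other direction, LINC00698 had 128 and 140 counts in the WT libraries, 181 and 120 in those of clone 1, and 85 and 65 in those of clone 2 (−0.88 ± 0.18), and LINC01405 had 69 and 73, 98 and 102, and 55 and 46 (−0.86 ± 0.20). For LINC01405 neither clone was called against WT, and the WT libraries lay between the clones. DESeq2 called 12 members between the clones, and LINC01124, LINC01405, LINC01234 and LINC01694 were not among these.

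Position was described for the 141 members found in GENCODE release 44, 128 of them by symbol and 13 by an older symbol. Of these, 31 overlapped a protein-coding gene, 57 had one within 50 kb and 53 had none within 50 kb. GENCODE types LINC01881, LINC02495, LINC00674, LINC02210 and LINC01529 as transcribed pseudogenes. In 14, the start lay head to head with that of a protein-coding gene within 5 kb, an arrangement in which the 2 genes are read in opposite directions from nearby starts. Where the neighbour could be tested, 22 of 44 members further than 50 kb from any protein-coding gene were called higher in clone 1 and also 22 in clone 2, against 16% and 16.9% of all genes tested. Of these 44, 11 had fewer than 34 counts over WT and 10 of the 11 were among the 22 in each clone, and of the other 33 members 12 were called higher in each clone. Among the nearer classes, the numbers over all members were 5 of 12 head-to-head members in each clone, 4 of 19 other overlapping members in each clone, and 5 of 37 (clone 1) and 6 of 37 (clone 2) other members within 50 kb. Leaving out the members with fewer than 34 counts over WT, they were 2 of 9, 3 of 17, and 2 (clone 1) and 3 (clone 2) of 32.

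The head-to-head pairs LINC01124 with SP5, LINC01896 with SALL3 and LINC02600 with ADRA2C were higher in both clones, and the last 2 were chosen for naming after their values were seen. LINC01124, LINC02600 and LINC00857 had fewer than 34 counts over WT, so their own increases are tied to the choice of members. LINC01896, with 15 and 21 counts in WT, was just over that number and could hardly have entered had it fallen. The partners were not chosen by their counts, but SALL3 and ADRA2C were named after their values were seen. SP5, beside LINC01124, had 8 and 2 counts in the WT libraries, 5098 and 4637 in those of clone 1, and 4692 and 3836 in those of clone 2, log2 fold changes of 9.71 ± 0.15 (SE) and 9.65 ± 0.15. In GENCODE, LINC01896 starts 744 bases from SALL3, a zinc finger gene of neural and limb development, on chromosome 18 (chr18:78976555-78979074, reverse strand). It had 15 and 21 counts in the WT libraries, 95 and 143 in those of clone 1, and 131 and 99 in those of clone 2, while SALL3 had 585 and 549, 2897 and 2831, and 2957 and 2636.

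The log2 fold changes were 2.54 ± 0.27 (SE) and 2.61 ± 0.27 for LINC01896 and 2.16 ± 0.07 and 2.25 ± 0.07 for SALL3. LINC02600 starts 2958 bases from ADRA2C, an adrenergic receptor gene, and had 16 and 14 counts in the WT libraries, 206 and 187 in those of clone 1, and 253 and 229 in those of clone 2. ADRA2C had 50 and 46, 340 and 303, and 412 and 342 counts, a log2 fold change of 2.56 ± 0.15 in clone 1 and 2.92 ± 0.15 in clone 2. Of 12 head-to-head pairs tested, both genes were called higher in 3 in each clone, so most pairs had no joint call. In the pair of LINC00857 and ANXA11, an annexin gene, LINC00857 had 6 and 1, 50 and 31, and 44 and 23 counts. ANXA11 went from 1422 and 1331 to between 1740 and 2106 and was not called (0.33 ± 0.07 and 0.39 ± 0.07). LINC00205 and POFUT2, a fucosyltransferase gene 137 bases away, likewise differed in their calls in clone 1, where only the LINC gene was called.

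Other close pairs called higher together in both clones were LINC02575 with TSPEAR and LINC00467 with TRAF5. Beside LINC02086, which entered through the knockouts, HOXB7 had 0 and 0 counts in the WT libraries, 51 and 52 in those of clone 1, and 97 and 91 in those of clone 2, and like LINC02086 it was higher in clone 2 than in clone 1 in every library. LINC02575 had 25 and 30, 199 and 160, and 128 and 107 counts, and TSPEAR 4 and 2, 46 and 31, and 43 and 41. TRAF5, a signalling adaptor gene, had a log2 fold change of 0.94 ± 0.09 (SE) in clone 1 and 0.74 ± 0.09 in clone 2. Of the overlapping pairs, LINC02021 and ALG1L2 were called higher together in clone 1 (1.33 and 1.07).

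Promoter sequence was looked at because PRC1.6 sits mainly at CpG-rich promoters. RefSeq promoters (GRCh38.p14, 250 bases before to 50 after the start) were matched for 88 members, 78 by symbol and 10 by a newer symbol. These 88 had a median of 10.5 CpG in 300 bases, against 14 over the 27305 promoters of the table. Of 44 members called higher in both clones, 25 were matched, with a median of 8. Of 8 called lower in both, 3 were matched, with a median of 4. Of 69 called in neither, 45 were matched, with a median of 14. LINC00458, LINC02582, LINC00707, LINC02474 and LINC00678 had no matched promoter, so these medians leave out some of the most abundant members. At least 15 CpG were found in 9 of the 25 (36%), 22 of the 45 (48.9%) and 48.8% of all promoters. The genes that rose included both CpG-dense and CpG-poor promoters, and the sequences below show both kinds, with each CpG in capitals. The first 3 belong to genes with a developmental neighbour that rose (38, 21 and 59 CpG), the next 2 to genes that rose from a level already present in WT (6 and 4), and the last to a gene that fell (6).
LINC01124, chr2:170714518-170714817, reverse strand: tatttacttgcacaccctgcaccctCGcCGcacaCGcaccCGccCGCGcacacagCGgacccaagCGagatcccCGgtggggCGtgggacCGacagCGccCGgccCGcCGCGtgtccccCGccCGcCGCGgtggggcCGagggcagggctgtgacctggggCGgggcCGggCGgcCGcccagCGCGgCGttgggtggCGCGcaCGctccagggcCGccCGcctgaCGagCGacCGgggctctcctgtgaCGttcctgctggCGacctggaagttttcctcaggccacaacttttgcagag
LINC02086, chr17:48642377-48642676, forward strand: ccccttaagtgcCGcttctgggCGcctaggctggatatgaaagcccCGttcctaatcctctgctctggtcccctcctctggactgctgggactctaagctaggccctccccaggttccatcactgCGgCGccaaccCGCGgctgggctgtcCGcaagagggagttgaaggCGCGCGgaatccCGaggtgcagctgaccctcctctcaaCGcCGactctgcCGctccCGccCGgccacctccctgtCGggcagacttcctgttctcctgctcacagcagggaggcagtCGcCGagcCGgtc
LINC01896, chr18:78979642-78979941, reverse strand: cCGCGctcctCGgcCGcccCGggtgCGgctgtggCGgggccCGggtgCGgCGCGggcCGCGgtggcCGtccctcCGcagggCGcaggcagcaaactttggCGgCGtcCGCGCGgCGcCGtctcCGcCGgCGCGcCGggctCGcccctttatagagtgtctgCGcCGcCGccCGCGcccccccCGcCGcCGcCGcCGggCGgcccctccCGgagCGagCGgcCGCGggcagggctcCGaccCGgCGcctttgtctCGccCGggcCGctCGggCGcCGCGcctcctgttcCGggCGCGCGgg
LINC01356, chr1:112850594-112850893, reverse strand: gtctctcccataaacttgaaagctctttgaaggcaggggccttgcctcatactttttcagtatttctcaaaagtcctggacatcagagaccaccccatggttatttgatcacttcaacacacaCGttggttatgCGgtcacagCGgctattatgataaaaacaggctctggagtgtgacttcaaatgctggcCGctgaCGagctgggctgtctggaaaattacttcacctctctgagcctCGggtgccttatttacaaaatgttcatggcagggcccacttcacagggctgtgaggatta
LINC01108, chr6:14285405-14285704, reverse strand: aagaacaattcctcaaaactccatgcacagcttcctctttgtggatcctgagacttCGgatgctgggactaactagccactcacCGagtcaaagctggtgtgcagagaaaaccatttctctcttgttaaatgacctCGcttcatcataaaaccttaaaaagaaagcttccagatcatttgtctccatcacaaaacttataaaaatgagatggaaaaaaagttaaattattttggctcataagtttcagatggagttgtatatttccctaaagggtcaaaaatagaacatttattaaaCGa
LINC02570, chr6:30848110-30848409, reverse strand: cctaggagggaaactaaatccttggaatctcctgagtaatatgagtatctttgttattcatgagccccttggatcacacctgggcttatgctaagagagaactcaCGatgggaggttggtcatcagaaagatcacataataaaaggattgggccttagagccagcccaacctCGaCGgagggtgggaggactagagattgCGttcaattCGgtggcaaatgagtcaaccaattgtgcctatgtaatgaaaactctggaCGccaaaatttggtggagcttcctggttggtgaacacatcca
The RefSeq starts of LINC02086 and LINC01896 lie before the gene starts given above, which are from GENCODE. For LINC01896 this start is nearer to SALL3, and 226 of the 300 bases printed are also in the SALL3 promoter, on the opposite strand. The CpG count of that window is thus not that of the LINC gene alone. Each of these 6 promoters was searched on both strands for 3 motifs: the E-box CACGTG that MAX and its partners bind, the E2F-type motif GCGGGAA, and the TCF/LEF motif CTTTGAT of WNT signalling, none of which contains another. No match was found in any of the 6, which says only that these letters are not in these windows. Over the 88 matched members, the E-box was present in 8 (9.09%), the E2F-type motif in 5 (5.68%) and the TCF/LEF motif in 0, against 7.43%, 6.56% and 2.64% of all promoters of the same length.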

How the data were processed

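RNA-seq read counts of 6 libraries (2 each of WT PGP1 cells, PCGF6-KO clone 1 and PCGF6-KO clone 2) were used. According to the submitters' processing notes, reads were trimmed with Trim Galore 0.6.2, aligned to GRCh38 with HISAT2 2.1.0 and counted per gene with featureCounts, and the authors deposited the raw counts and gene lengths. Neither the annotation release nor the settings for strand and multi-mapped reads are given in the sources used here. Counts of genes that overlap another gene are therefore uncertain, as are those of members with a near-identical copy (at least 95% identity over 200 bases: LINC00265 with LINC01001, LINC00526 with LINC00667, and LINC00623, LINC00869 and LINC01138 with one another). The table held 0 columns of other samples.

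Genes were filtered with filterByExpr (17672 left), scaled by TMM and fitted in 3 groups with glmQLFit and glmQLFTest of edgeR 4.0.16 (limma 3.58.1, R 4.3.3). Unless DESeq2 is named, each adjusted p is from this test, two-sided, with Benjamini-Hochberg adjustment over all genes tested, in the fit with all libraries or with the one named left out. The common biological coefficient of variation was 0.0524. CPM are TMM-scaled, and CPM per kb divides by the deposited gene length. The median difference between replicates per member was 1.15-fold in WT and clone 2 and 1.18-fold in clone 1, more than counting error. Ratios to WT groups with 1 to 3 counts in a library have exact binomial intervals, and those to 0 counts are bounds against 3 counts in each library. The steps were tested on simulated counts.

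Members were named by rule: the 10 largest increases and all 8 decreases called in both clones (up to 10), ranked by the smaller change, the 5 highest and the 5 lowest differences between clones, the 5 highest and 3 lowest summed counts, the members of the lists, and protein-coding neighbours within 50 kb. The members and lists were chosen with earlier results of these data known. As alternatives, upper-quartile and RLE normalization, DESeq2 1.42.0, other filters and thresholds, the replicate block, only the groups compared, and leaving out each library were run. The minimum of 34 counts in WT and the members with no shared exon bases were added after the data were seen. Positions came from GENCODE 44 and RefSeq (blastn 2.17.0, Python 3.11.15, pandas 2.3.3, matplotlib 3.10.9).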

Additional observations from a re-analysis of the deposited data

Results flagged for a closer look

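Named members whose change against WT differed between the 2 clones were picked out by a direct test, edgeR's quasi-likelihood test of clone 2 against clone 1 in the fit with 3 groups. The log2 difference, clone 2 minus clone 1, was 2.45 for LINC01060, 1.86 for LINC00540, 1.66 for LINC00504, 1.66 for LINC01844, 1.30 for LINC02086, 0.91 for LINC00665, 0.68 for LINC01508 and 0.61 for LINC02582. LINC01060 had 116 of its counts in clone 2 and 37 in the other 4 libraries, so its value is a description of a member chosen through clone 2. It was −0.60 for LINC01139, −0.63 for LINC00707, −0.74 for LINC01124, −0.86 for LINC01405, −0.88 for LINC00698, −1.09 for LINC01234, −1.24 for LINC02570 and −1.28 for LINC01694. The adjusted p ran from 2.27e-10 for LINC00665 to 0.0229 for LINC01139. Each clone carries its own deletion and grew from 1 cell, so clone and deletion cannot be told apart here.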

How the results depend on the processing

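The numbers of members called in clone 1 (62) and in clone 2 (63) against WT stayed within 1.5 times of these under each alternative but those named here. For the clones against each other the count of 21 called members was 12 with DESeq2, 32 with an adjusted p alone and 6 in a test against a fold change of 1.5. With at least 34 counts over WT, 40 of 114 members were called in clone 1 and 41 in clone 2, and among the members that share no exon bases with another gene 29 in clone 1, 32 in clone 2 and 11 between the clones, as fewer members were counted. Leaving out each library gave 57 to 62 calls in clone 1, 59 to 63 in clone 2 and 15 to 20 between the clones. With the replicate number as a block there were 63, 64 and 21 calls. The replicate numbers are not stated to pair the samples, and the deviations of same-numbered libraries correlated at 0.07, 0.07 and 0.18 over 13420 genes.

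Of the log2 fold changes against WT of named members, 12 values changed sign, all of them uncalled. With at least 10 counts in every library these were LINC00698 (0.01) and LINC01578 (0.01) in clone 1. Without WT replicate 1 they were LINC00339 (0.04) and LINC00402 (−0.01) in clone 1 and LINC02387 (−0.17) in clone 2, and without WT replicate 2 LINC00698 (0.04) and LINC01578 (0.01) in clone 1. Without clone 1 replicate 1 they were LINC01578 (0.10) and LINC00402 (−0.20), without clone 1 replicate 2 LINC00698 (0.22), and without clone 2 replicates 1 and 2 LINC00511 (−0.09) and LINC02387 (−0.13), both in clone 2. Calls that rested on 1 library were those of LINC01484 in both clones (adjusted p of 0.0515 and 0.0968 without WT replicate 1, and 0.053 in clone 2 without its replicate 2), LINC01139 in clone 1 (a log2 fold change of −0.52 without WT replicate 1), LINC00342 in clone 2 (0.0866 without WT replicate 1 and 0.0775 without clone 2 replicate 2) and LINC00632 in clone 1 (a log2 fold change of 0.53 without WT replicate 2 or clone 1 replicate 1). DESeq2 did not call LINC01484 (adjusted p = 0.0521) or LINC00342 (0.118) in clone 2, and upper-quartile normalization took LINC00632 in clone 1 to 0.59. Between the clones, LINC02582 had 0.58 with upper-quartile normalization and 0.59 with only the groups compared, LINC01124, LINC01508, LINC01234, LINC01694, LINC01139 and LINC01405 were not called by DESeq2 (adjusted p from 0.0565 to 0.255), LINC01139 (−0.60) also fell just under the fold threshold with no filter on low counts, and 7 genes lost the call without 1 library. These were LINC02582 (0.59 without WT replicate 2, 0.52 without clone 1 replicate 1 and 0.57 without clone 2 replicate 2), LINC00707 (−0.57 without clone 1 replicate 2 and −0.54 without clone 2 replicate 1), LINC01508 (0.50 without clone 1 replicate 2 and 0.57 without clone 2 replicate 2), LINC01234 (−0.99 and −0.83, likewise), LINC01694 (−1.13 without clone 1 replicate 2 and −0.88 without clone 2 replicate 1), LINC01139 (−0.50 without clone 1 replicate 1 or clone 2 replicate 2) and LINC00698 (−0.59 without clone 1 replicate 1). Over the libraries left out in turn, the values of the genes that changed sign ran from −0.30 to 0.22 for LINC00698, −0.12 to 0.10 for LINC01578, −0.79 to 0.04 for LINC00339 and −0.20 to 0.23 for LINC00402 in clone 1, and from −0.09 to 0.19 for LINC00511 and −0.17 to 0.66 for LINC02387 in clone 2. Another scaling moved the median of all genes by no more than 0.04. The depth of 2 libraries a group limits members near 100 counts, whose standard errors were about 0.4.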

Other observations

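Several members further than 50 kb from a protein-coding gene were called higher in both clones together with that nearest gene, and were looked at after their values were seen. Of 44 such pairs tested, both genes were called higher in 7 in clone 1 and 9 in clone 2. The member was called higher in 22 in each clone and the neighbour in 14 and 16, so joint calls can arise without a link. An excess of joint calls was not tested. LINC02474 (2 and 2 counts in the WT libraries) and LINC00540 (15 and 8) were low in WT, so their increases are a description with no test. DUSP10, a phosphatase gene 224252 bases from LINC02474, had 39 and 21 counts in the WT libraries, 634 and 636 in those of clone 1, and 753 and 687 in those of clone 2, log2 fold changes of 4.22 ± 0.16 (SE) and 4.53 ± 0.16. FGF9, a growth factor gene 336474 bases from LINC00540, had 5 and 0, 16 and 19, and 23 and 16 counts. EOMES, a T-box factor gene of mesendoderm 74841 bases from LINC01980, had 3 and 5 counts in WT and between 1615 and 2630 in the knockouts, while LINC01980 had 99 and 90, 210 and 152, and 233 and 199 (0.76 ± 0.16 and 1.14 ± 0.16). The LINC gene and its neighbour thus moved by very different amounts in this last pair.

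Some members went against their nearest gene. LINC01108 rose by 3.52 in clone 1 and 2.97 in clone 2 on the log2 scale, and CD83, 143209 bases away, had log2 fold changes of −0.80 and −1.09, called lower in both. LINC02582 rose by 4.29 in clone 1, where NETO1, 456795 bases away, was called lower at −1.48. Apart from these pairs, ZNF717, a zinc finger gene that overlaps LINC00960, had 0 and 1 counts in clone 2, against 69 and 40 in WT and 88 and 73 in clone 1, while LINC00960 was called lower in clone 1 (−0.93) and not called in clone 2 (−0.23).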
